A study of Mus musculus with 18 samples.

Results

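Tubulin mRNAs were followed in mouse naive CD4+ T cells through 9 genes, 4 for alpha-tubulin (Tuba1a, Tuba1b, Tuba1c and Tuba4a), 4 for beta-tubulin (Tubb2a, Tubb4b, Tubb5 and Tubb6) and 1 for gamma-tubulin (Tubg1). The genes were taken as the listed tubulin rows of the deposited expression table, 9 of 15137 rows, and all 9 passed the minimum level for testing. The T cells came from spleens of C57BL/6J mice, were sorted as CD3+CD4+CD25-CD62L+CD44- and were profiled by RNA sequencing. The mice were labelled either Control or Creld1cKO, a conditional knockout of Creld1 driven by CD4-Cre, a transgene active in developing T cells that later become CD4+ or CD8+ cells, so deletion starts in the thymus. Cells of each genotype were taken fresh, after 8 h of culture without stimulation, or after 8 h of culture with anti-CD3 and anti-CD28 antibodies at 1 µg/ml, which engage the T cell receptor and its costimulatory receptor. Each of the 6 groups had 3 libraries, 18 in all. The labels do not say how old the mice were, what sex they were, or whether controls carried CD4-Cre or the modified Creld1 allele.

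Microtubules are hollow polymers of alpha- and beta-tubulin heterodimers, and gamma-tubulin sits in ring complexes at the centrosome from which they grow. Naive T cells are small and quiescent. On antigen contact they move the centrosome to the contact site, then enlarge and divide on a microtubule spindle. Tubulin mRNA is also under a feedback control specific to alpha- and beta-tubulin: when free heterodimers are in excess, the factor TTC5 recognises the first amino acids of a nascent tubulin chain on the ribosome, and the mRNA being translated is degraded.

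That feedback reads the start of the protein, and alpha- and beta-tubulins are known to differ most in the acidic tail at its end, so the start of the coding sequence is shown for 8 genes and its end for 6. The first 12 coding bases, with the start codon in capitals, come from the GENCODE M21 transcripts on GRCm38, 5′ to 3′.
Tuba1a: ATGcgtgagtgc
Tuba1b: ATGcgtgagtgc
Tuba1c: ATGcgtgagtgc
Tuba4a: ATGcgcgagtgc
Tubb2a: ATGcgcgagatc
Tubb4b: ATGagggagatc
Tubb5: ATGagggaaatc
Tubg1: ATGccgagagaa
Tuba1a, Tuba1b and Tuba1c began with the same 12 bases, and Tubg1, which lies outside the feedback, began with a different series of codons. The last 60 coding bases are given next, with the stop codon in capitals. In alpha- and beta-tubulin they encode the tail that carries many of the modifications of assembled microtubules, and Tubg1 is shown beside them.
Tuba1c: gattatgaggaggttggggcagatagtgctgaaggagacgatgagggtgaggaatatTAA
Tuba4a: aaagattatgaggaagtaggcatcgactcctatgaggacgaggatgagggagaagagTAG
Tubb2a: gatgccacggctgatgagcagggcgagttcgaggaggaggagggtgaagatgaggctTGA
Tubb4b: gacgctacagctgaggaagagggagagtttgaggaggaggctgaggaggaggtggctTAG
Tubb5: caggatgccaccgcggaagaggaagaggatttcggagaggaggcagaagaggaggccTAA
Tubg1: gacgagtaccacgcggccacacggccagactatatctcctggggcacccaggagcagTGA
Across the whole coding sequence Tuba1a was 98.3% identical to Tuba1b and 97.1% identical to Tuba1c, and Tuba1b was 97.9% identical to Tuba1c. Tuba4a was 84.7 to 85.2% identical to these 3 genes.

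That likeness limits what a 75-base read can tell apart, and the labels do not say how reads matching several genes were counted. Of all 75-base windows of the coding sequence, 93.6% in Tuba1b, 87.4% in Tuba1a and 84.7% in Tuba1c also occurred, letter for letter, in a transcript of another gene. Of the 1282 such windows of Tuba1b, 501 were shared by all 3 genes.
The share was 52.5% in Tubb2a, mostly with Tubb2b, 45.6% in Tubb4b, mostly with a pseudogene copy, 10.3% in Tubg1, with Tubg2, and 0 in Tuba4a, Tubb5 and Tubb6. Over the whole transcript of Tuba4a, 47.2% of windows were shared with Stk16, a gene it overlaps. The library kit does not mark strand, so reads of Tuba4a and Stk16 from these windows cannot be told apart. Values of Tuba1a, Tuba1b, Tuba1c, Tubb2a, Tubb4b and Tuba4a are therefore uncertain to the extent that shared reads were dropped or split.

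Promoters are shown for 5 tubulin genes on different chromosomes that passed in at least 1 of the fits below, to set side by side the sequence in front of the RefSeq start of each. Each stretch is the 120 bases before the RefSeq start on GRCm38.p6, 5′ to 3′ along the gene, with matches to any of 4 motifs in capitals. The RefSeq and GENCODE starts can differ. The Tuba4a stretch lies inside the gene as GENCODE places it, and the Tubb5 stretch overlaps its gene by a few bases. The motifs were CCAAT (the CCAAT box), GGGCGG (the GC box), CACGTG (an E-box) and TATAAA (the TATA box), each searched on both strands, so that a GC box may read CCGCCC. In the stretches shown no match overlapped another.
Tuba1c, chr15:99029771-99029890, plus strand: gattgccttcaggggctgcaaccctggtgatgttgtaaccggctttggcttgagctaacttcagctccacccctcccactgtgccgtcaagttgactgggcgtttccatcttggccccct
Tuba4a, chr1:75219295-75219414, minus strand: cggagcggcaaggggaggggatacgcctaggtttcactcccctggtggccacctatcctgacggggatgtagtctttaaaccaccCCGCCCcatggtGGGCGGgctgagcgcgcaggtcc
Tubb2a, chr13:34078009-34078128, minus strand: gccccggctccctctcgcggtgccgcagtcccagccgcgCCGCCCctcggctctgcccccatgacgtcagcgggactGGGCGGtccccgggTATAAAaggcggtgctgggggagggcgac
Tubb4b, chr2:25224703-25224822, minus strand: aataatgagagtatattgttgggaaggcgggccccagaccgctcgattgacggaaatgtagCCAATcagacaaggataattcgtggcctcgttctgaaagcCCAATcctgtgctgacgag
Tubb5, chr17:35838302-35838421, minus strand: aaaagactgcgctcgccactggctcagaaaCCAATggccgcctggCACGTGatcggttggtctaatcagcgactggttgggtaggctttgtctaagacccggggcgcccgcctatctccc
Within the full 250 bases before the start, Tubb4b held 5 CCAAT matches, Tubb5 held 2, and Tuba1a and Tuba1c held 1 each. CCAAT occurred in 33.8% of all 32851 promoters of that length, so a single match is common. GC boxes numbered 2 each in Tuba1b, Tuba4a and Tubb2a and 1 each in Tuba1a and Tubb4b, against 32.7% of all promoters with one or more. The E-box of Tubb5 is a motif of 6.02% of all promoters, and the TATA box of Tubb2a is one of 12.4%. A match describes letters and not a bound site. Promoter entries were matched for 7 of the 9 genes.

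In the annotation, Tuba1a (chr15:98949837-98953703), Tuba1b (chr15:98931425-98934565) and Tuba1c (chr15:99029891-99038110) are neighbours in 1 cluster, with Tuba1c on the opposite strand to the others. Tuba4a lies at chr1:75214228-75219865, Tubb2a at chr13:34074274-34078007, Tubb4b at chr2:25222160-25224702, Tubb5 at chr17:35833921-35838306 and Tubg1 at chr11:101119938-101126419. Tubb6 lies on chromosome 18, from 67390717 to 67402749. All 9 are protein-coding genes of GRCm38, and the table gives 1 value per gene symbol. Whether that value covers all exons of the gene is not stated.

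The deposited values ran from -1.36 to 17.2 and were read as log2 normalised expression, a reading taken from the values themselves; read depth is unknown, so no counting error can be attached to a value. The linear values of a library summed to between 6782465 and 7419367. The labels give 1 mouse number per group, repeated for its 3 libraries, and do not say that libraries came from separate animals, so every p-value rests on library-to-library spread alone, and that spread may be technical. Creld1 itself lay between 4.33 and 5.40 in the 9 control libraries and between 3.70 and 4.62 in the 9 knockout libraries, ranges that overlap. Naive CD4+ T cell markers summed to 54348 to 66583 linear units in every library, against 52.2 to 88.8 for B cell markers, of which 3 of 8 passed the minimum and Cd79b, Ms4a1, Pax5 and Cr2 did not. Libraries also differed in how expression depended on the GC content of transcripts. This GC slope, in log2 units per SD of GC content, was 0.064, 0.15 and 0.25 in the control unstimulated libraries and -0.13, -0.067 and -0.19 in the knockout unstimulated ones. The third knockout fresh library stood apart from its group, with a slope of 0.16 against -0.19 and -0.31, and its summed tubulin level was 10364 linear units against 7089 and 6337.

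The alpha genes Tuba1b and Tuba1a and the beta gene Tubb5 had the highest tubulin levels. To compare genes, linear values were divided by exon length in kb; whether the deposited values already account for length is not stated in the sources, and they were taken as not doing so. On that scale Tuba1b averaged 1281 ± 230 (SD, n = 18 libraries), Tubb5 878 ± 136 and Tuba1a 757 ± 48.3 per kb. Tuba1b was above Tubb5 in 18 of 18 libraries and Tubb5 above Tuba1a in 15 of 18, though the ranges of each pair overlapped. The order of the first pair rests on the division by length: in the undivided values Tubb5 was above Tuba1b in 18 of 18 libraries, with means of 2922 and 2401 linear units. Undivided, Tuba4a was also above Tubb4b in 16 of 18 libraries. The next level was held by Tubb4b at 329 ± 88.6, Tuba4a at 240 ± 54.3 and Tubb2a at 207 ± 58.5 per kb. Tubb4b was above Tuba4a in 14 libraries and Tuba4a above Tubb2a in 15, so the order of these 3 was not the same in every library. Tuba1c followed at 118 ± 28.1, below Tubb2a in all 18 libraries (14 of 18 undivided), then Tubg1 at 46.7 ± 13.2 and Tubb6 at 8.15 ± 1.79 per kb, the last 2 without overlap with any neighbour. Tuba1a and Tubb4b, the neighbours between the upper and middle levels, did not overlap either. Together the 9 genes took 0.0854 to 0.154% of the summed linear expression of a library.

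Within the alpha genes, Tuba1b held 53.2% of the length-scaled sum as a mean over 18 libraries, Tuba1a 32.0%, Tuba4a 9.96% and Tuba1c 4.86%. Within the beta genes, Tubb5 held 62.2%, Tubb4b 22.9%, Tubb2a 14.4% and Tubb6 0.579%. Tubb5 is the widely expressed beta-tubulin of dividing cells, whereas Tubb2a and Tubb3 are best known from neurons and Tubb1, not analysed here, from platelets. Without scaling by length Tuba4a, whose annotated exons are long, held 17.9% of the alpha sum.

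**Figure D1:**
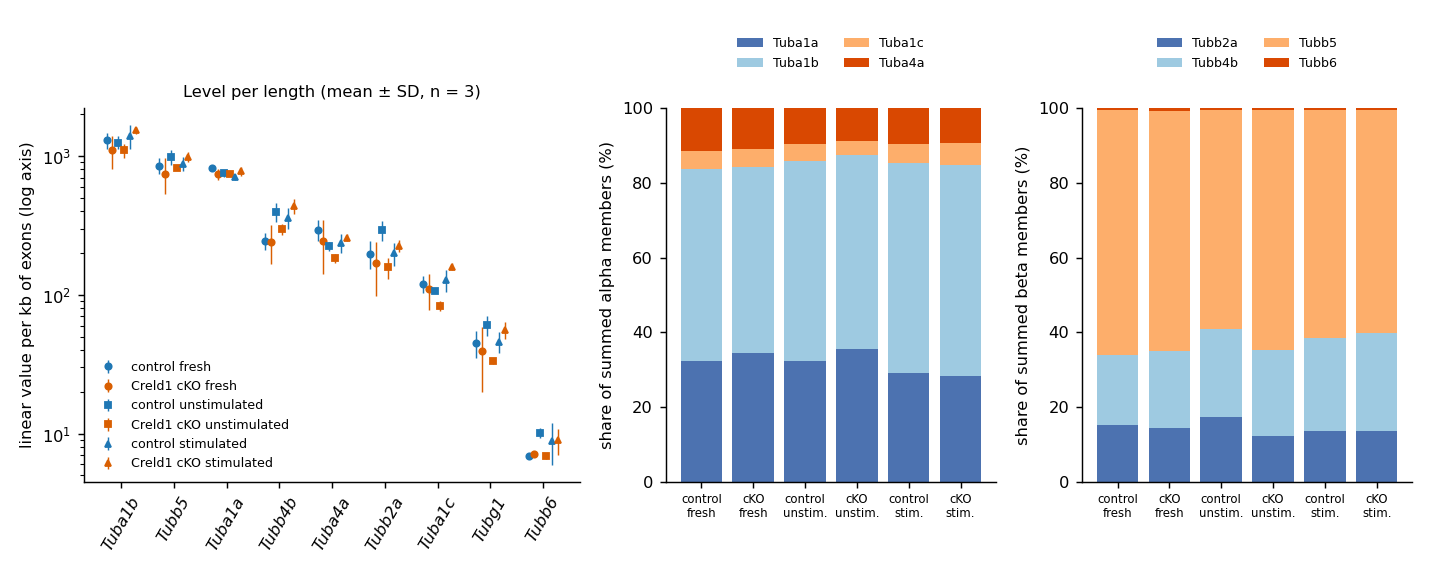
Level of each of the 9 tubulin genes (linear value per kb of exon, log axis) in 18 libraries, and the share of each gene in the summed alpha or beta level by group. Tuba1b, Tubb5 and Tuba1a lie highest, Tubg1 and Tubb6 lowest, and the share of Tubb4b is smaller in fresh than in cultured groups.

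Stimulation against unstimulated culture was the first comparison, made within each genotype. In control cells none of the 9 tubulin genes passed the test (limma, Benjamini-Hochberg over 10877 genes, threshold 0.05), and 1 had an unadjusted p under 0.05; 0.349% of all genes were called there. In knockout cells all 9 differences were positive and 1, Tuba1c, rose; in the fit that also holds the GC slope of each library, given further on, Tuba1a and Tubb5 turned negative and the median difference went from 0.49 to 0.15. Tuba1c encodes an alpha-tubulin closely related to Tuba1b. Its log2 values in unstimulated knockout libraries were 7.69, 7.56 and 7.45, and in stimulated ones 8.43, 8.50 and 8.59. All stimulated values were above all unstimulated ones. The log2 difference was 0.94 ± 0.17 (SE; 95% interval 0.58 to 1.301), a 1.92-fold rise, with a limma adjusted p of 0.0246; 0.285% of all genes were called in this comparison. The call was lost on leaving out any 1 of the 3 unstimulated knockout libraries, or stimulated knockout library 2 or 3 (adjusted p 0.0776 to 0.180, difference 0.88 to 1.00).

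The control values of Tuba1c moved less together. They were 7.92, 7.96 and 7.93 without stimulation and 7.86, 8.29 and 8.36 with it, so 1 stimulated library lay below all unstimulated ones. The difference was 0.23 ± 0.17 (adjusted p 0.549). Of 6 activation genes that served as a check on the stimulation, 2 rose in control and 1 in knockout cells. By limma Egr2 rose by 1.14 in control cells (adjusted p 0.0188) and by 1.38 in knockout cells (adjusted p 0.00304), and Il2ra rose by 1.20 in control cells (adjusted p 0.0309), with 1.09 in knockout cells (adjusted p 0.0525). Cd69, Nr4a1, Myc and Tnfrsf4 passed in neither genotype. Differences were positive for 5 of the 6 in control cells and for all 6 in knockout cells. The 6 genes summed to 4608 to 6721 linear units in fresh libraries, 1756 to 2636 in unstimulated and 2345 to 4569 in stimulated ones. Their sum was thus highest in fresh cells.

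Gamma-tubulin, the nucleating form, had the next largest difference in knockout cells. Tubg1 stood at 6.16, 6.31 and 6.26 in unstimulated knockout libraries and at 6.74, 7.09 and 7.10 in stimulated ones. The groups did not overlap, but the difference of 0.73 ± 0.26 had a limma adjusted p of 0.192. In control cells Tubg1 went from 6.83, 7.14 and 7.31 to 6.46, 6.96 and 6.64, with overlap and a difference of -0.41 ± 0.26 (adjusted p 0.512). Among the beta genes of knockout cells, Tubb4b differed by 0.55, Tubb2a by 0.53, Tubb6 by 0.36 and Tubb5 by 0.26, none past the threshold. Among the other alpha genes Tuba1b and Tuba4a each differed by 0.49 and Tuba1a by 0.05.

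In 7 of the 9 genes, all but Tuba1a and Tubb6, every stimulated knockout library was above every unstimulated one, as were 23.9% of all tested genes. The median tubulin difference was 0.49 in knockout cells, beside 0.01 over all genes, and -0.13 in control cells, beside -0.02. The difference between the genotypes in the effect of stimulation was positive for all 9 genes, from 0.13 in Tuba1a to 1.14 in Tubg1, and for 6 of 9 with the GC slope (median 0.60 without it and 0.02 with it). None passed the limma test (smallest adjusted p 0.166), 4 had an unadjusted p under 0.05, and 0.00919% of all genes, 1 gene, were called. Fitted on only the groups compared, 7 of the 9 rose in knockout cells where 21.6% of all genes were called, and 4 (Tubg1, Tubb4b, Tuba1c and Tubb2a) passed for the difference between genotypes where 21.8% were. Without the third knockout fresh library, which enters neither comparison and only the shared estimate of spread, 2 genes (Tubg1 and Tuba1c) rose in knockout cells where 3.09% of all genes were called, and 4 passed for the difference between genotypes where 15.2% were.

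**Figure D2:**
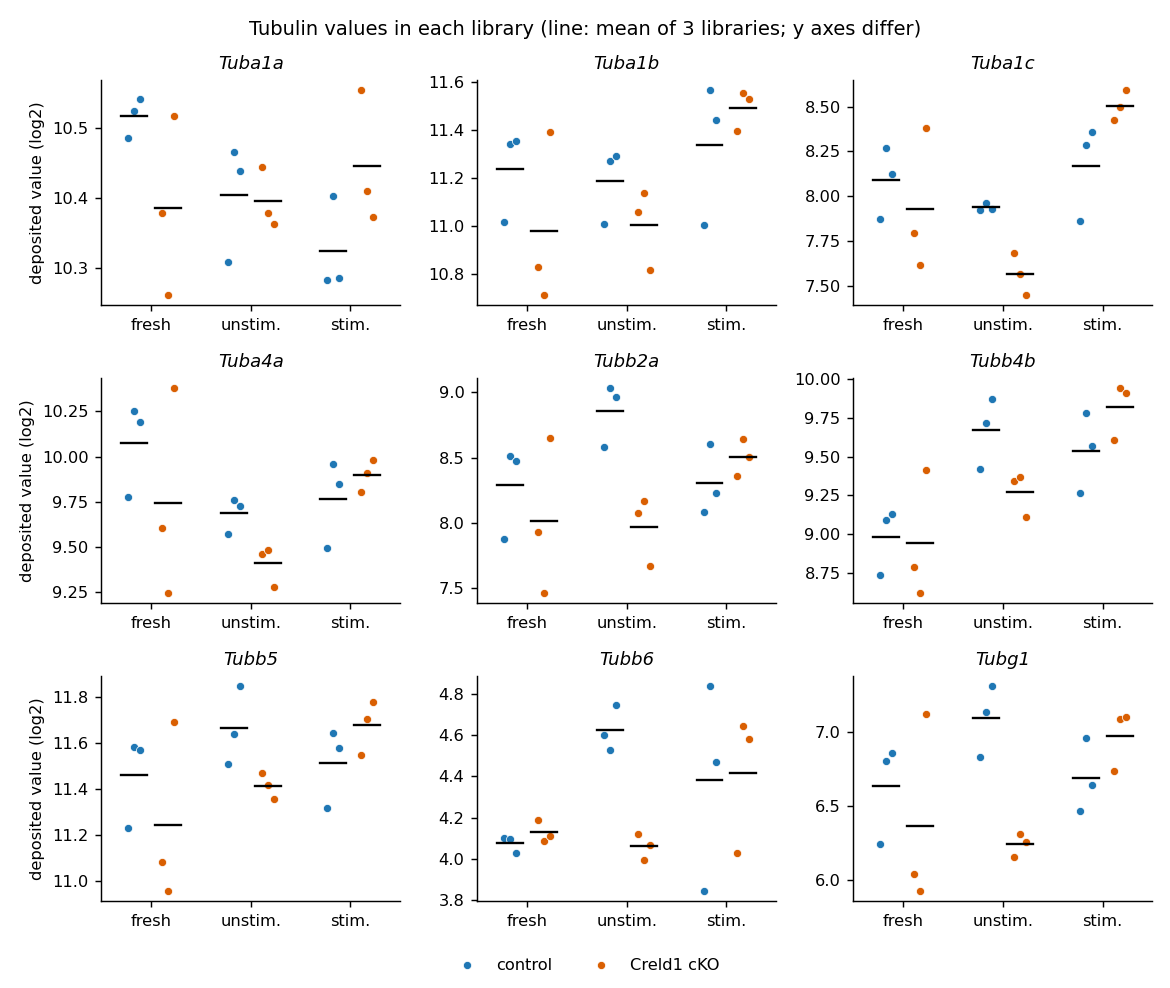
Log2 value of each tubulin gene in each of the 18 libraries, by group, with a bar at the mean of 3 libraries; the y axes differ between panels. Tuba1c values of stimulated knockout libraries, 8.43 to 8.59, lie above those of unstimulated ones, 7.45 to 7.69, and Tubb4b values of control unstimulated libraries lie above those of control fresh ones.

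Culture for 8 h without stimulation was compared with fresh cells next. In control cells Tubb4b, a beta-tubulin present in most tissues, rose. Its log2 values were 8.73, 9.09 and 9.13 in fresh control libraries and 9.42, 9.72 and 9.88 in cultured ones. The 2 groups did not overlap. The difference was 0.69 ± 0.19 (SE; 95% interval 0.28 to 1.09), 1.61-fold, with a limma adjusted p of 0.0138. Leaving out the first control fresh or the third control unstimulated library ended the call (adjusted p 0.0703 and 0.0649). In this comparison 29% of all genes were called, 14.9% higher and 14.1% lower, so 1 call among 9 genes was below the share over all genes.

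The other beta genes of control cells had positive differences that missed the threshold. Tubb2a went from 7.88, 8.52 and 8.47 to 8.58, 9.03 and 8.96, without overlap (difference 0.57 ± 0.25, adjusted p 0.100). Tubb6, the scarcest of the 9, went from 4.10, 4.10 and 4.03 to 4.60, 4.53 and 4.75, also without overlap (difference 0.55 ± 0.20, adjusted p 0.0516). Tubb5 differed by 0.21 and Tubg1 by 0.46, with overlap in both. The alpha genes had differences of the other sign: Tuba4a -0.39, Tuba1c -0.15, Tuba1a -0.11 and Tuba1b -0.05, the last 0.0095 under quantile normalisation. Tuba4a went from 9.78, 10.25 and 10.19 to 9.57, 9.76 and 9.73, with every cultured library below every fresh one and a limma adjusted p of 0.179.

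Markers of other cell types moved with culture as well. Of 8 CD8+ T cell and NK cell markers, Cd8b1, Prf1 and Eomes were tested, while Cd8a, Nkg7, Gzmb, Klrb1c and Ncr1 did not pass the minimum. Of the 3 tested, 2 fell in control and 2 in knockout culture. The list summed to 226 to 325 linear units in fresh libraries against 154 to 216 in unstimulated ones. The 1 tested myeloid marker, Itgam, fell in both genotypes, with the list at 38.4 to 54.6 against 27.9 to 35.0 units. Of 3 tested B cell markers 2 rose in control and 1 in knockout culture, with the list at 52.2 to 86.1 against 59.9 to 88.8 units. Over all genes 14.1% fell and 14.9% rose in control culture, and 11.4 and 10.7% in knockout culture. The part of these markers in the tubulin differences was not tested.

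In knockout cells none of the 9 passed for culture (limma, smallest adjusted p 0.142, 1 with an unadjusted p under 0.05), where 22.1% of all genes were called, 10.7% higher and 11.4% lower. Tubb4b had again the highest difference, 0.33 ± 0.19, and Tuba1c the lowest, -0.36 ± 0.17. The difference between genotypes in the effect of culture ran from -0.62 in Tubb6 to 0.12 in Tuba1a, with a smallest adjusted p of 0.843, 1 unadjusted p under 0.05 and 0% of all genes called. Without the third knockout fresh library, 4 genes passed in control cells (Tubb4b, Tubb2a, Tubb6 and Tuba4a; 38% of all genes) and 2 in knockout cells (Tubb5 and Tubb4b; 30.5%). With a block for the 3 runs of library numbers, Tubb6 joined Tubb4b in control cells (33% of all genes), and on only the groups compared Tubb6 and Tubb2a did (29.9%).

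**Figure D3:**
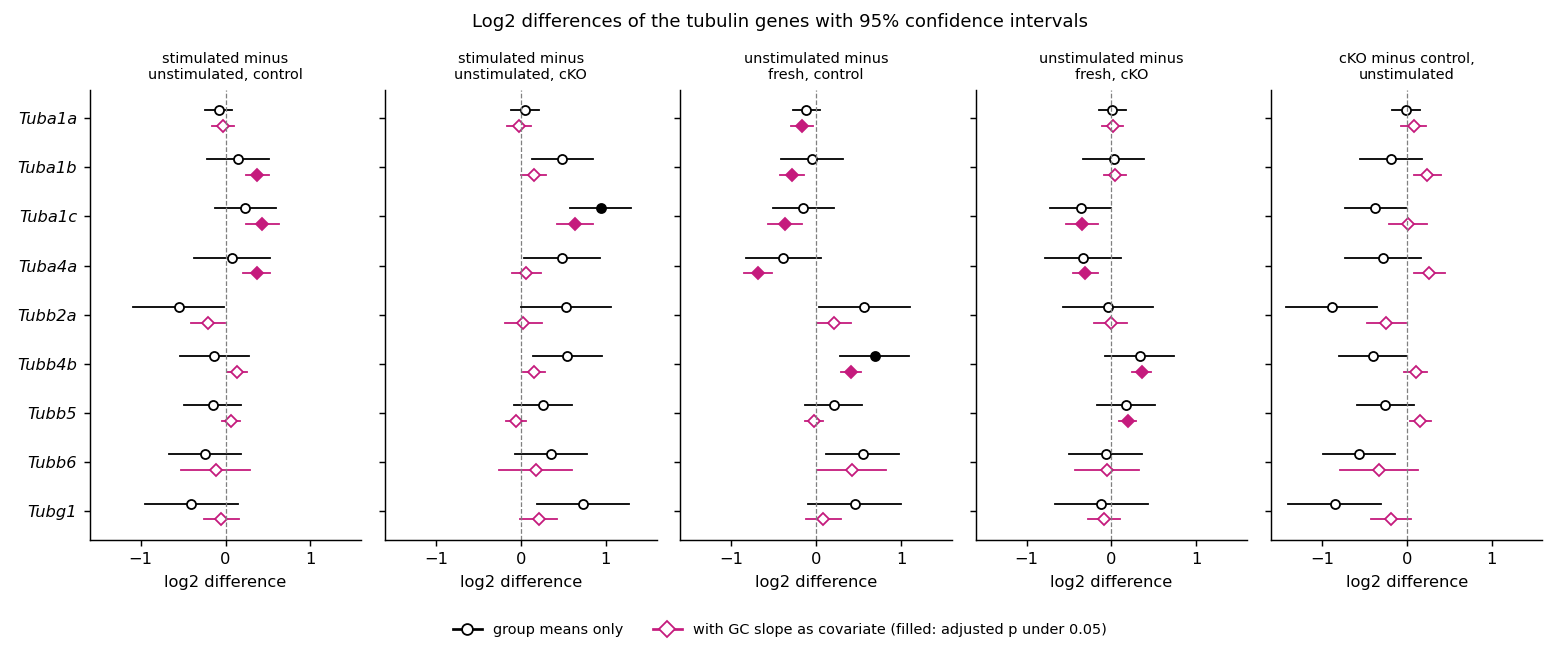
Log2 difference with its 95% interval for each tubulin gene, from the fit on group means alone and from the fit that adds the GC slope. The comparisons drawn are stimulation and culture in each genotype and genotype in unstimulated cells. Filled symbols passed the test. Without the covariate 8 of 9 intervals reach across 0 in control stimulation, while in knockout stimulation Tuba1c is highest at 0.94.

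Genotype was compared within each condition. In unstimulated culture all 9 tubulin differences, knockout minus control, were negative, except that Tuba1a came to 0.01999 with TMM-type scaling and 6 genes turned positive with the GC adjustment described below. The median was -0.37 beside -0.01 over all genes. Tubb2a was 8.58, 9.03 and 8.96 in control and 8.07, 8.17 and 7.67 in knockout libraries. Tubg1 was 6.83, 7.14 and 7.31 in control and 6.16, 6.31 and 6.26 in knockout libraries. Every knockout value of both genes was below every control value. The differences were -0.89 ± 0.25 for Tubb2a (95% interval -1.42 to -0.35), -0.85 ± 0.26 for Tubg1 and -0.56 ± 0.20 for Tubb6, each with a limma adjusted p of 0.103.

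None of the 9 passed, 4 had an unadjusted p under 0.05, and 0% of all genes were called, although 3606 of 10877 had an unadjusted p under 0.05. In 7 of the 9, all but Tuba1a and Tuba1b, knockout values lay entirely below control values, as in 28.6% of all genes. Calls here moved with the estimate of spread. On only the groups compared 6 genes fell where 34.4% of all genes were called, without the third knockout fresh library 3 fell (Tubg1, Tubb2a and Tuba1c; 26.1%), and with the block for runs 2 fell (Tubb2a and Tubg1; 8.15%).

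In fresh cells the genotype difference ran from -0.33 in Tuba4a to 0.05 in Tubb6, and in stimulated cells it was positive for all 9, from 0.04 in Tubb6 (-0.0076 under quantile normalisation) to 0.34 in Tuba1c, with 3 of the 9 (Tubb6, Tuba4a and Tubb2a) turning negative with the GC slope. No tubulin gene passed in either (limma, smallest adjusted p 0.790 and 0.974), and none had an unadjusted p under 0.05. Of all genes, 0.00919% were called in fresh and 0% in stimulated cells. The 3 knockout fresh libraries were far apart: Tuba4a was 9.60, 9.25 and 10.38 there, against 9.78, 10.25 and 10.19 in control, so the knockout group reached both below and above the control group. Without the third knockout fresh library Tubb5, Tuba4a and Tubg1 fell, where 11% of all genes were called. Averaged over the 3 conditions, differences ran from -0.32 in Tubb2a to -0.01 in Tuba1a, and with the GC slope 6 of the 9 turned positive (median -0.10 without it and 0.04 with it). None passed (smallest adjusted p 0.463, 1 unadjusted p under 0.05), and 0.0184% of all genes were called. Without that library Tuba4a, Tubg1 and Tubb2a fell, where 14.8% were.

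The GC slope of the libraries moved with most tubulin values, and its part in the results above was not tested beyond the fit given next. The 9 transcripts hold 52.0 to 57.2% GC. Over the 18 libraries, after subtracting group means, the correlation (Pearson r) of a gene's value with the GC slope was 0.98 for Tubb4b, 0.97 for Tubb5 and Tubg1, 0.95 for Tuba4a, 0.94 for Tubb2a and Tuba1b and 0.87 for Tuba1c. It was 0.56 for Tuba1a and 0.46 for Tubb6. The 2 libraries whose slope, after subtracting group means, lay farthest from the median were then left out. Without them r was 0.97 for Tubb4b, 0.74 for Tuba1c and 0.64 for Tubb6 but 0.21 for Tuba1a. Over all tested genes the median was 0.00 and 36% were above 0.5. The slope is computed from the same libraries and genes, so it shares their errors.

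**Figure D4:**
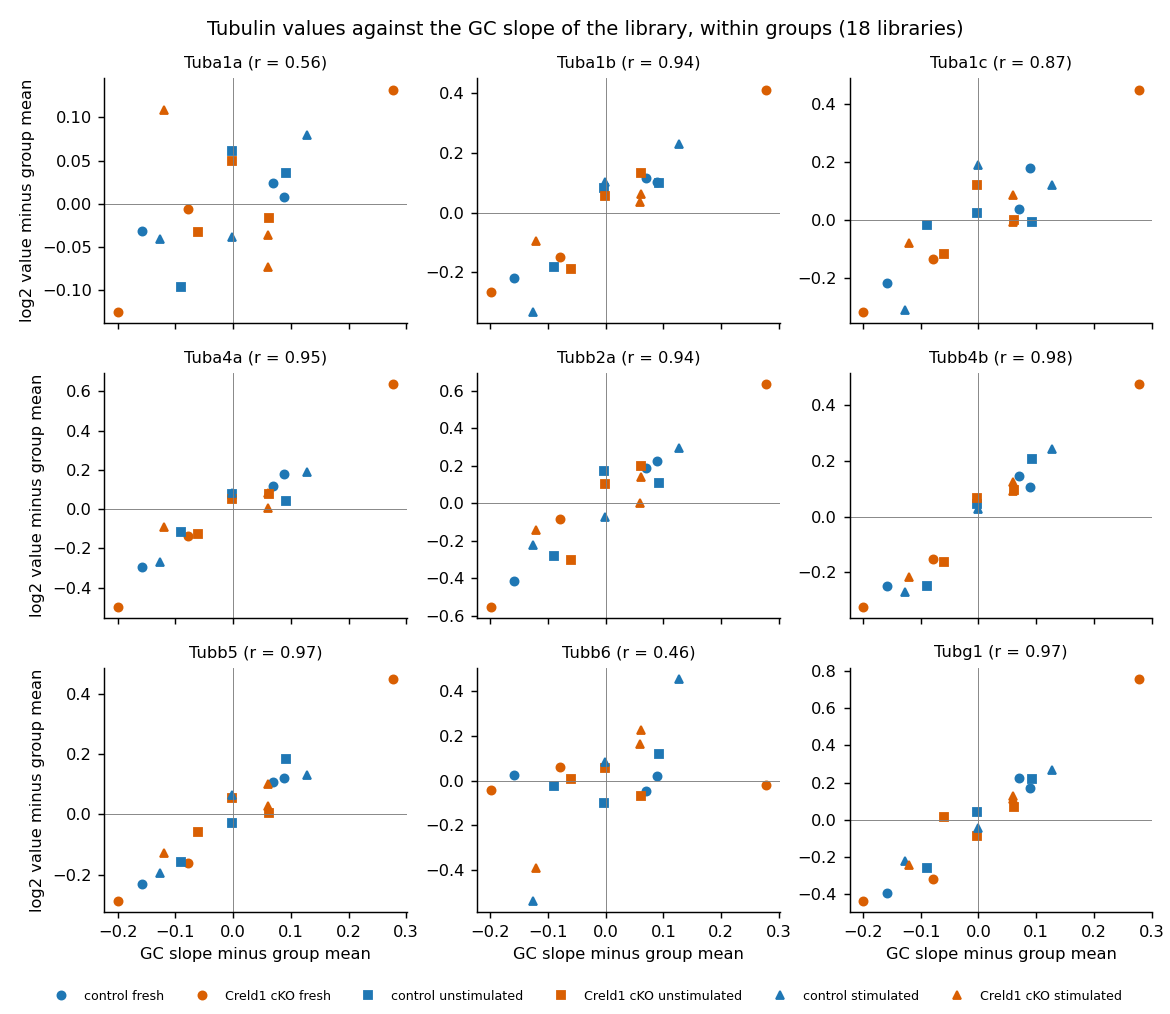
Deviation of tubulin log2 values from their group mean (y axes) against the deviation of the GC slope from its group mean (x axes), for the 18 libraries. Tubb4b values follow the slope closely (r 0.98), and Tuba1a values (r 0.56) and Tubb6 values (r 0.46) less so.

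The GC slope was then added to the limma model. In control cells 3 of the 4 alpha genes rose on stimulation in this fit: Tuba1b by 0.38 ± 0.07 (adjusted p 0.00301), Tuba4a by 0.37 ± 0.08 (0.011) and Tuba1c by 0.44 ± 0.09 (0.015). No beta gene passed, and 2.91% of all genes were called. Tuba1b, the most abundant alpha gene, had stood at 11.01, 11.27 and 11.29 in unstimulated and 11.01, 11.57 and 11.44 in stimulated control libraries, where the groups overlapped, so these calls rest on the adjustment. In knockout cells Tuba1c rose again, by 0.64 ± 0.10 (adjusted p 0.00268), and 0.662% of all genes were called. The other 8 differences there were smaller than before, such as 0.21 for Tubg1, 0.16 for Tubb4b and 0.07 for Tuba4a, against 0.73, 0.55 and 0.49. The slope was -0.13, -0.067 and -0.19 in unstimulated knockout libraries and -0.029, 0.15 and 0.15 in stimulated ones, without overlap. In knockout cells the slope and stimulation therefore cannot be told apart.

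In culture the same adjusted fit called 5 of the 9 genes in control and 4 in knockout cells. In control cells Tuba4a fell by 0.69 (adjusted p 9.42e-07), Tuba1c fell by 0.37 (0.00458), Tuba1b fell by 0.29 (0.00179) and Tuba1a fell by 0.16 (0.0385), while Tubb4b rose by 0.41 (1.21e-05). All genes called there came to 42.9%, with 22% higher and 20.9% lower. In knockout cells Tuba4a fell by 0.31 (0.00176) and Tuba1c fell by 0.35 (0.00373), while Tubb4b rose by 0.36 (2.24e-05) and Tubb5 rose by 0.19 (0.00361). All genes called there came to 45.3%, with 20.5% higher and 24.9% lower. In this fit Tubb4b was higher and Tuba4a and Tuba1c were lower in both genotypes. Without the slope, only Tubb4b in control cells passed among these. The calls, 5 and 4 of 9, are to be read beside the 42.9 and 45.3% of all genes called. Without the third knockout fresh library the adjusted fit called 4 genes in each genotype, with Tuba1a no longer among those of control cells.

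No tubulin gene passed in the adjusted fit for any genotype or interaction comparison. For unstimulated cells the adjusted genotype differences ran from -0.33 in Tubb6 to 0.26 in Tuba4a, with a smallest adjusted p of 0.677 and 4 unadjusted p under 0.05. Tubb2a came to -0.24 and Tubg1 to -0.18 there, against -0.89 and -0.85 before the adjustment. The difference between genotypes in stimulation ran from -0.30 to 0.29, with 2 unadjusted p under 0.05, and that in culture had 3. All genes called in the adjusted fit came to 0.00919% for the stimulation interaction, 0% for the culture interaction, 0.00919% for genotype in fresh cells, 0% in unstimulated cells, 0% in stimulated cells and 0.0827% averaged. In the libraries the slope and genotype were unevenly spread, above 0 in all 3 control unstimulated libraries and below 0 in all 3 knockout unstimulated ones, so in unstimulated cells the slope and genotype cannot be told apart.

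The make-up of the beta pool was described without that adjustment. Tubb4b held 18.9, 18.4 and 19.0% of the length-scaled beta sum in control fresh libraries and 20.7, 20.9 and 20.7% in knockout fresh ones. After unstimulated culture it held 22.6, 23.8 and 23.9% in control and 23.2, 23.9 and 22.3% in knockout libraries. After stimulated culture it held 23.9, 25.7 and 24.6% in control and 25.1, 27.2 and 26.4% in knockout libraries. Every fresh library lay below every cultured library, and the knockout fresh values lay above the control fresh values. The within-group correlation of this share with the GC slope was 0.46 over the 18 libraries.

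The ratio of summed alpha to summed beta level, both per kb, was 1.95 ± 0.11 (SD, n = 3) in control fresh and 1.91 ± 0.15 in knockout fresh libraries. It was 1.399 ± 0.087 and 1.65 ± 0.021 after unstimulated culture and 1.71 ± 0.028 and 1.66 ± 0.12 after stimulated culture, in control and knockout cells respectively. The ratio was thus lowest in control unstimulated libraries, but its within-group correlation with the GC slope was -0.84, and these libraries had the highest mean slope. Tuba4a held a mean 11.6% of the alpha sum in control fresh and 10.8% in knockout fresh libraries, against 9.57 and 8.71% after unstimulated culture and 9.58 and 9.45% after stimulated culture; its correlation with the slope was 0.84. No test was made on these shares and ratios. In bulk RNA, fewer cells of a kind and less RNA per cell cannot be told apart.

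**Figure D5:**
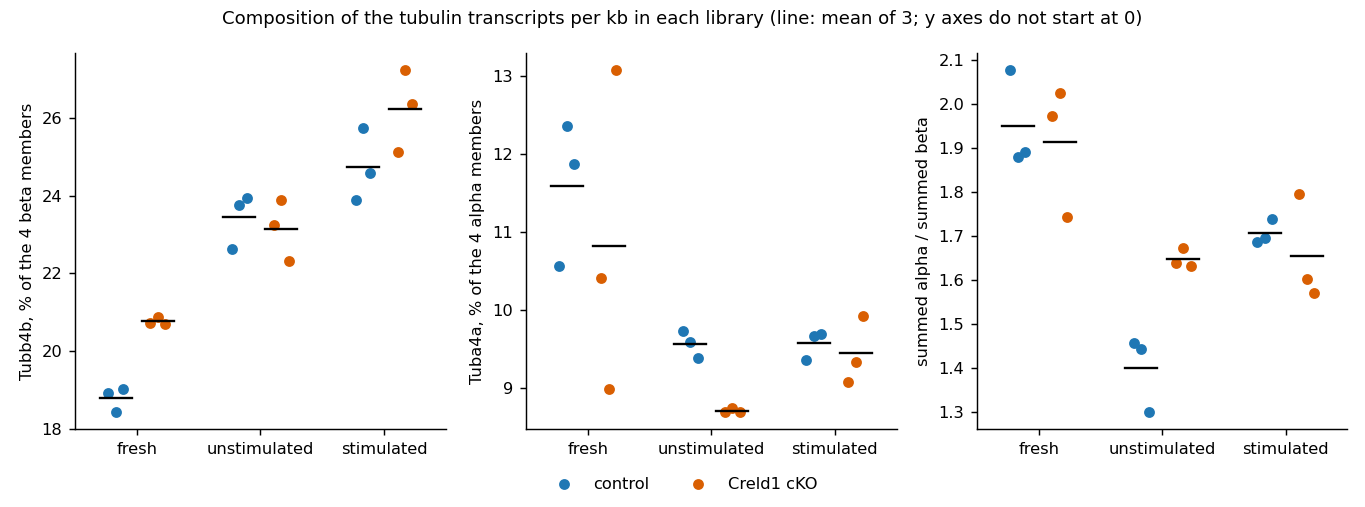
Share of Tubb4b in the summed beta-tubulin level and the ratio of summed alpha to summed beta level, for each of the 18 libraries by group. The 6 fresh libraries lie between 18.4 and 20.9% for Tubb4b, below all 12 cultured libraries.

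Of 11 further mouse tubulin genes, 9 were in the table and 6 passed the minimum. Among them Tubb3, a beta-tubulin used as a marker of neurons, had the largest change. Its log2 values were 3.45, 3.52 and 3.47 in control fresh libraries and 4.84, 5.38 and 5.20 in control unstimulated ones. The groups stood well apart, and the difference was 1.66 ± 0.31 (3.16-fold; limma adjusted p 0.000995). In knockout cells it went from 3.71, 3.42 and 3.62 to 4.51, 4.33 and 4.43, again without overlap, with a difference of 0.83 ± 0.31 (adjusted p 0.0651).

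Tuba3a, an alpha-tubulin best known from testis, rose in control culture by 1.09 ± 0.27 (adjusted p 0.00678) and Tubb2b, a near relative of Tubb2a, rose by 0.76 ± 0.26 (adjusted p 0.0371). Tube1, the epsilon-tubulin of centrioles, rose in knockout culture by 0.38 ± 0.11 (adjusted p 0.0203), with 0.17 ± 0.11 in control culture. The Tube1 call was lost under quantile normalisation (adjusted p 0.103), on only the groups compared (0.179), and without knockout fresh library 3 or knockout unstimulated library 2 or 3 (0.05996 to 0.0946). The Tubb2b call was lost with GC slope and block together (adjusted p 0.0711), and without control fresh library 1 or 3 or control unstimulated library 2 or 3 (0.0730 to 0.157). Tuba3a shares 19.8% of its coding windows, chiefly with Tuba3b. In the fit with the GC slope, Tubb3 and Tuba3a rose in culture in both genotypes (Tubb3 by 1.42 in control and 0.85 in knockout cells, Tuba3a by 0.75 and 0.65), and Tuba3a rose by 0.69 on stimulation of control cells (adjusted p 0.0209). Tubb4a and Tubd1, the delta-tubulin, passed in none of the 10 comparisons in either fit.

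Genes that act on tubulin were followed through 5 lists of 122 genes, of which 105 were tested. By limma none of the 105 passed for stimulation in either genotype, for genotype or for an interaction. The folding list (chaperonin subunits, prefoldin and tubulin cofactors) had 3 genes that rose and 6 that fell of 23 in control culture, and 0 and 6 in knockout culture. Cct3, a subunit of the chaperonin that folds tubulin, fell by 0.45 in control (adjusted p 0.000429) and by 0.51 in knockout culture (adjusted p 0.000163), while Tbcc, a cofactor of heterodimer assembly, rose by 0.74 in control culture (adjusted p 0.0175). The nucleation list of gamma-tubulin complex and augmin genes had 3 that rose and 2 that fell of 22 in control culture, with Tubgcp3 rising by 0.30 (adjusted p 0.0164), and 1 and 1 in knockout culture.

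The list of tubulin-modifying enzymes had 5 that rose and 1 that fell of 15 in control culture and 3 and 1 in knockout culture. Ttl, which puts back the last tyrosine of alpha-tubulin, rose by 0.51 in control (adjusted p 0.00239) and by 0.40 in knockout culture (adjusted p 0.0127). Tpgs1, a subunit of a polyglutamylase, rose by 1.20 in control culture (adjusted p 0.000309). On stimulation of control cells these 2 differed by -0.44 and -0.56 (adjusted p 0.107 and 0.281). In the fit with the GC slope Ttl fell by 0.43 there (adjusted p 0.0374), and so did Clip1, a protein of growing microtubule ends, by 0.21 (adjusted p 0.0277).

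The autoregulation list, of TTC5 partners and mRNA decay genes, had 1 that rose and 4 that fell of 15 in control culture and 0 and 2 in knockout culture. The gene that rose was Ttc5 itself, by 0.39 ± 0.07 (adjusted p 0.00117); on stimulation of control cells it differed by -0.24 (adjusted p 0.205). Among microtubule-associated proteins 4 rose and 3 fell of 30 in control culture and 5 and 1 in knockout culture, and Mapre1, which binds growing ends, fell by 0.51 in control culture (adjusted p 0.00941). A list of proliferation genes had 1 that rose and 4 that fell of 15 in control culture and 2 and 4 in knockout culture. Pcna, a DNA replication factor, fell by 0.86 and by 0.99 on the log2 scale in the 2 genotypes, while Mcm7 rose by 0.49 and 0.53. These shares can be read against the 29 and 22.1% of all genes called in those comparisons.

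Most tubulin genes varied together across libraries, and Tubb6 and Tuba1a less so. After subtraction of group means, r over 18 libraries was from 0.82 to 0.97 between pairs of the other 7 genes, highest for Tuba1b with Tubb4b. It was from 0.56 to 0.71 between Tuba1a and those 7 genes, from 0.31 to 0.50 between Tubb6 and those 7, and -0.01 between Tuba1a and Tubb6. Outside the family, the 5 genes most like the summed tubulin level over the 18 libraries were Lrp10 (r 0.98), Isyna1 (0.97), Eif3d (0.97), Banf1 (0.96) and Sart1 (0.96). Their transcripts hold 54.2 to 60.5% GC, and all of these values share the library, its depth and its GC slope. The gene most like Tuba1c was Nfatc1 (r 0.94) and that most like Tuba1b was Cd6 (0.96).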

How the data were processed

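The authors deposited 1 table of normalised expression on what its values show to be a log2 scale, 15137 gene symbols by 18 libraries. Per the labels' protocols, libraries were made from 10 ng of RNA with a TruSeq v2 kit and sequenced as 75-base single reads. Per the submitters' processing notes, CASAVA 1.8, HISAT2 2.1.0, SAMtools 1.4, Partek 6.6, DESeq2 and mm10 were used, with no role or order given. Which annotation, read-sharing rule and normalisation settings were used is not stated there.

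Genes reaching a linear value of 10 in 3 or more libraries (10877, 71.9%) were tested with limma 3.58.1 in R 4.3.3: 6 group means over 18 libraries, trended empirical Bayes, 12 residual degrees of freedom (15.7 with moderation), 10 comparisons, two-sided, Benjamini-Hochberg over all tested genes. The fit was tested on simulated data with independent noise for each gene and library. Those data held no GC slope, so that test does not cover it. GENCODE M21 on GRCm38 gave lengths, GC content (99.3% of tested genes) and coding sequences; RefSeq promoters are from GRCm38.p6. The genes and lists were chosen with earlier results of these data known. Named were all 9 tubulins, the other tested tubulins, the 4 genes of each list with the smallest p for stimulation in control cells, and the 5 genes most correlated with the summed tubulins or, for single tubulins, the best correlated gene. The GC slope of a library is the slope of its deviations from each gene's mean on transcript GC content. Alternatives were other pseudocounts, filters, scalings, library weights, no trend, only the groups compared, a block for runs of library numbers, the GC slope, other lengths and leaving out each library. Counts could not be recovered, so count models were not run. Some items are not reported here.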

Additional observations from a re-analysis of the deposited data

Results flagged for a closer look

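Tubb4a, a beta-tubulin mostly of the nervous system, had differences of opposite sign on stimulation in the 2 genotypes, neither past the limma threshold. Its log2 values were 5.14, 5.54 and 5.43 in control unstimulated and 4.56, 5.14 and 5.00 in control stimulated libraries, and 4.72, 4.85 and 4.69 in knockout unstimulated and 4.90, 5.08 and 5.11 in knockout stimulated libraries. Every stimulated control library was below every unstimulated one, the nearest pair by less than the printed digits (difference -0.47, adjusted p 0.370), and every stimulated knockout library was above every unstimulated one (difference 0.28, adjusted p 0.340). By limma the difference between the genotypes was 0.74 ± 0.27 with an adjusted p of 0.166, so it did not pass the threshold. Its within-group correlation with the GC slope was 0.91 over 18 libraries. With the GC slope in the model, the differences were -0.24 in control and -0.06 in knockout cells, of the same sign, and the difference between the genotypes was 0.18 (adjusted p 0.999).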

How the results depend on the processing

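Depth is unknown, and 3 libraries a group limit precision. Count models were not run, since no counts could be recovered. Replicate numbers follow accession order only and pair no samples. The replicate block stands for the 3 runs of consecutive library numbers, each with 1 library of every group, and no label calls a run a batch. Library weights were fitted gene by gene because the default method did not converge.

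Under the 12 alternatives other than leaving out a library, 614 log2 differences of tubulin genes kept their direction and side of the threshold, 81 passed it newly, 3 no longer passed it and 35 changed sign; the causes were not tested. Counts of tubulin genes called moved as follows. In control culture 2 were called with a pseudocount of 5, 2 without a trend, 2 with the replicate block, 3 on only the groups compared and 5 with the GC slope. Of all 10877 genes, 3159, 3105, 3586, 3251 and 4669 were called there, in that order. On only the groups compared 7 were called for stimulation in knockout cells, 4 for the stimulation interaction and 6 for genotype in unstimulated cells. All genes called there came to 21.6, 21.8 and 34.4%. The replicate block called 2 for genotype in unstimulated cells, where 8.15% of all genes were called. The GC slope called 3 for stimulation in control cells and 4 for culture in knockout cells, where 2.91 and 45.3% of all genes were called. GC slope and replicate block together called 3, 5 and 4 for stimulation in control cells, culture in control cells and culture in knockout cells. Of all 10877 genes, 240, 4429 and 5002 were called there. GC slope without the third knockout fresh library, added after seeing the data, called 3, 4 and 4 in the same comparisons. All genes called there came to 3.2, 41.1 and 40.3%. Library weights called 3 for stimulation in control cells, 8 for stimulation in knockout cells, 8 for the stimulation interaction, 5 and 2 for culture in control and knockout cells, 8 for genotype in fresh cells, 8 in unstimulated cells and 6 averaged, where 24.8, 53, 54.3, 50.3, 48.4, 50.7, 56.3 and 47.6% of all genes were called.

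Of the 105 microtubule genes in lists, none were called for stimulation, genotype or interactions by the limma fit reported, and 32 and 20 for culture in control and knockout cells, where 29 and 22.1% of all genes were called. On only the groups compared 16 were called for stimulation in knockout cells, 26 for the stimulation interaction, 8 for culture in knockout cells and 40 for genotype in unstimulated cells, where the replicate block called 8. All genes called in these comparisons came to 21.6, 21.8, 7.46 and 34.4%, and to 8.15% with the block. Library weights called 30 and 55 for stimulation in control and knockout cells, 60 and 2 for the stimulation and culture interactions, 59 and 52 for culture in control and knockout cells, and 48, 62 and 44 for genotype in fresh cells, in unstimulated cells and averaged. In that order, 24.8, 53, 54.3, 0.781, 50.3, 48.4, 50.7, 56.3 and 47.6% of all genes were called. The GC slope called 2 for stimulation in control cells and 49 and 41 for culture in control and knockout cells, where 2.91, 42.9 and 45.3% of all genes were called. With the replicate block as well the last count was 42, where 5002 of 10877 genes were called.

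Among the differences followed, signs changed as follows. TMM-type scaling gave Tuba1a 0.01999 for genotype in unstimulated cells and 0.0079 averaged. Quantile normalisation gave Tuba1b 0.0095 for control culture and Tubb6 -0.0076 for genotype in stimulated cells. Library weights gave Tuba1a -0.0037 for stimulation in knockout cells, and Tubg1 0.14 and Tubb2a 0.10 for knockout culture. With the GC slope, stimulation of control cells gave Tubb5 0.066 and Tubb4b 0.13, stimulation of knockout cells Tubb5 -0.059 and Tuba1a -0.021, and control culture Tubb5 -0.024. Genotype in unstimulated cells then gave Tubb5 0.16, Tuba1b 0.24, Tuba4a 0.26, Tubb4b 0.11, Tuba1c 0.013 and Tuba1a 0.083. Genotype in stimulated cells gave Tubb6 -0.038, and averaged genotype gave Tuba1a 0.027. Over all 10 comparisons 26 of 90 tubulin differences changed sign with the GC slope, among them 6 for averaged genotype, 3 for genotype in stimulated cells and 3 for the stimulation interaction (Tuba1b -0.22, Tuba4a -0.30 and Tubb5 -0.12). With GC slope and replicate block the same differences, apart from the interaction, were 0.058 and 0.13, then -0.047 and -0.058, then -0.015, then 0.15, 0.24, 0.32, 0.097, 0.044 and 0.13, then -0.016 and 0.044. Further sign changes in that fit were Tubb2a -0.054 for stimulation in knockout cells and Tuba1a -0.051 for the stimulation interaction. Genotype in fresh cells also changed sign there for Tubb2a (0.022) and Tuba1c (0.0064).

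Without length scaling the shares of the alpha or beta sum were 28.1% for Tuba1a, 48.5% for Tuba1b, 17.9% for Tuba4a, 8.30% for Tubb2a, 17.1% for Tubb4b and 74.1% for Tubb5. With the longest coding transcript as length they were 12.03% for Tuba4a and 11.7% for Tubb2a, and levels per kb were 313 for Tuba4a, 430 for Tubb4b, 1103 for Tubb5 and 11.3 for Tubb6, with the order of the 9 genes unchanged. Undivided values put Tubb5 above Tuba1b and Tuba4a above Tubb4b.

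Leaving out 1 library at a time gave 0 to 2 tubulin calls for stimulation in knockout cells, 0 to 4 for the stimulation interaction, 0 to 4 and 0 to 2 for culture in control and knockout cells, and 0 to 3 each for genotype in fresh cells, in unstimulated cells and averaged. Microtubule list calls ran from 0 to 2, 0 to 14, 17 to 47, 13 to 31, 0 to 9, 0 to 29 and 0 to 11 in that order. The highest tubulin counts were reached without the third knockout fresh library. All genes called without it came to 3.09, 15.2, 38, 30.5, 11, 26.1 and 14.8%, in the same order. Signs changed, as ranges, for Tubb6 (-0.47 to 0.029), Tuba4a (-0.015 to 0.21) and Tubb4b (-0.26 to 0.0019) in stimulation of control cells and Tuba1a (-0.0036 to 0.088) in that of knockout cells. They changed for Tuba1b (-0.16 to 0.044) in control culture, and for Tuba1b (-0.11 to 0.23), Tubg1 (-0.34 to 0.26), Tubb2a (-0.32 to 0.28) and Tuba1a (-0.054 to 0.075) in knockout culture. For genotype they changed for Tuba1a in unstimulated cells (-0.057 to 0.022) and averaged (-0.028 to 0.015), and for Tubb6 in stimulated cells (-0.24 to 0.26). For the interactions and for genotype in fresh cells, in stimulated cells and averaged, only the genes with the lowest and highest difference were followed. Sign changes of the other genes there were not recorded.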
